A study of Mus musculus with 4 samples.

Results

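F-box and Kelch-like proteins are the exchangeable adaptors that bring substrates to cullin ubiquitin ligases, and their transcripts were followed here in mouse bone marrow neutrophils with and without miR-125a, before and after lipopolysaccharide (LPS). The members are all genes whose symbol starts with Fbxo, Fbxl, Fbxw or Klhl followed by a digit. Each is represented by the single-symbol probe set with the highest mean over the 4 arrays, and the gene was kept where that probe set exceeded a signal floor on at least 1 array. The floor, the 60th percentile of all values, was a log2 signal of 6.80. Of 100 such symbols on the array 58 were kept, among 9865 genes of the 18193 measurable ones that passed the same floor. The rule uses the signal level and no comparison between arrays.

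The knockout (miR-125a-/-) cells formed a group after 3 h with LPS and a group without LPS, and the wild-type (miR-125a+/+) cells formed the corresponding groups. All groups came from C57BL/6 mice of 8 weeks, and neutrophils were enriched with magnetic beads and kept in serum-containing medium. LPS, from the outer membrane of Gram-negative bacteria, activates neutrophils through Toll-like receptor 4. Each group is 1 Affymetrix array hybridised with RNA pooled from 3 experiments, which leaves every difference without a replicate and without a test, and lets the small number of arrays limit precision throughout. The labels give the cells without LPS as 0 h in their titles and do not settle whether those cells were also cultured for 3 h, so LPS and time in culture cannot be told apart. The construction of the miR-125a allele, and the cells that lose it, were not described in the labels.

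miR-125a is processed from a hairpin on chromosome 17. Its mature arms are shown because the knockout cells are labelled as lacking this gene, with the seed (bases 2 to 8) in capitals, as RefSeq gives them for GRCm38.p6 on the plus strand. The arms lie at chr17:17830817-17830840 and chr17:17830855-17830876.
mmu-miR-125a-5p: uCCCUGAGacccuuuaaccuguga
mmu-miR-125a-3p: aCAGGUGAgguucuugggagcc
The array has no probe set for the microRNA. Its host gene Spaca6 has 3 probe sets, none above 6.24 on any array and hence all under the floor, and the genotype labels were therefore not checkable from these arrays.

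Cullin ligases are built from a cullin scaffold, a RING protein that binds the ubiquitin-conjugating enzyme and an adaptor that binds the substrate. F-box proteins dock onto Cul1 through Skp1, and are named by the part that holds the substrate: leucine-rich repeats in Fbxl, WD repeats in Fbxw and other domains in Fbxo. Kelch-like proteins dock onto Cul3 directly through a BTB domain and hold the substrate with Kelch repeats. In the response to LPS, the F-box proteins called beta-TrCP are known for marking the NF-kB inhibitors of the IkB family for destruction.

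Of 45101 probe sets, 39.4% lay above the floor in LPS-treated and 41.5% in unstimulated knockout cells, and 37.8% in LPS-treated and 41.3% in unstimulated wild-type cells. The LPS-treated wild-type array had the lowest share, the lowest median log2 signal (5.78, against 5.93 to 6.03 on the others) and the most values listed at 0 (428, against 298 to 379). The poly-A spike-in controls averaged 9.25 in LPS-treated and 8.64 in unstimulated knockout cells, and 9.29 in LPS-treated and 8.72 in unstimulated wild-type cells. All 10 matched of 12 neutrophil markers, among them S100a8, S100a9, Ltf and Csf3r, stood above the floor on every array, at log2 signals from 11.15 to 16.20. Of 4 matched B cell and 4 matched T or NK cell markers, 1 each passed the floor (Cd79b and Cd3d), and none of the markers of any list was listed at 0. The summed signal of 7 matched erythroid markers was 295 in LPS-treated and 2088 in unstimulated knockout cells, and 234 in LPS-treated and 1149 in unstimulated wild-type cells. That of 5 eosinophil and basophil markers was 1493 in knockout and 3470 in wild-type cells after LPS, and 1850 in knockout and 4121 in wild-type cells unstimulated. For 7 matched monocyte and macrophage markers, 42778 in LPS-treated knockout cells stood against 23267 in unstimulated ones, and 45413 in LPS-treated wild-type cells against 23244. These sums do not stand for every marker. Of the 6 that passed the floor, 4 were 2-fold or more higher and 2 lower after LPS in each genotype. Their log2 differences ran from -3.54 to 5.16 in knockout and from -3.88 to 4.94 in wild-type cells. In these bulk samples fewer cells of a type and less RNA per cell cannot be told apart, and the part of these other cells in the values below was not tested.

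Detection was counted by branch of the family. The floor was passed by 10 of 17 Fbxl, 21 of 32 Fbxo, 9 of 18 Fbxw and 18 of 33 Klhl symbols. Among the 58 members, 49 exceeded it on all 4 arrays, 2 on 3 arrays, 6 on 2 arrays and 1, Fbxw9, on 1 array. Fbxw9 was just inside, with its highest log2 signal at 6.96, as were Fbxl19 at 7.08 and Klhl36 at 7.26, and Fbxw16, Fbxo27 and Fbxl2 were just outside at 6.67, 6.65 and 6.58. Genes under the floor on every array included Fbxo32 (atrogin-1, known from muscle atrophy), whose highest value was 5.66, and Klhl21, a Cul3 adaptor of cell division, at 6.51. The muscle Kelch gene Klhl41 and the testis gene Klhl10 were under the floor too, as was Fbxl12os, a transcript opposite Fbxl12 that the naming rule admits. A further 16 of 115 protein-coding family symbols in the GRCm38.p6 gene table had no single-symbol probe set and are not analysed here. Neighbouring family genes were detected unevenly: on chromosome 4, Fbxo6 passed the floor on all arrays while Fbxo44 and Fbxo2, its successive neighbours, stayed under it.

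The first pair of comparisons asks how the adaptors responded to LPS in each genotype. The call was a signal difference of 2-fold or more, and where one of the arrays was under the floor the printed fold is a minimum. In knockout cells 4 of 58 members were higher after LPS and 2 were lower, where 6.62% of all measured genes were higher and 7.99% lower. In wild-type cells 5 of 57 were higher and 6 lower, where 7.29% of all genes were higher and 9.69% lower. Of these wild-type calls 3 were bounds (Fbxl8, Fbxo31 and Fbxl4), and of the knockout calls 0 were. Fbxl8 passed the floor only on LPS arrays and Fbxo31 only on unstimulated ones, so their differences could take only 1 direction. With 10.3% of members called in knockout cells against 14.6% of all genes, and 19.3% in wild-type cells against 17.0%, the family's share of calls was near the background. The median log2 difference over members was -0.15 in knockout and -0.17 in wild-type cells, against -0.05 and -0.03 over all measured genes. The wild-type median was 0.04 under quantile normalization and 0.06 under median scaling, so no direction is given for the family in wild-type cells. Scaling on poly-A spike-in controls moved the median of all genes to -0.61 in knockout and -0.54 in wild-type cells, and under it 1 member was higher and 21 lower in knockout cells, and 3 were higher and 19 lower in wild-type cells. Set against that shift of all genes, the counts were 5 higher and 3 lower in knockout cells, and 5 higher and 5 lower in wild-type cells.

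**Figure D1:**
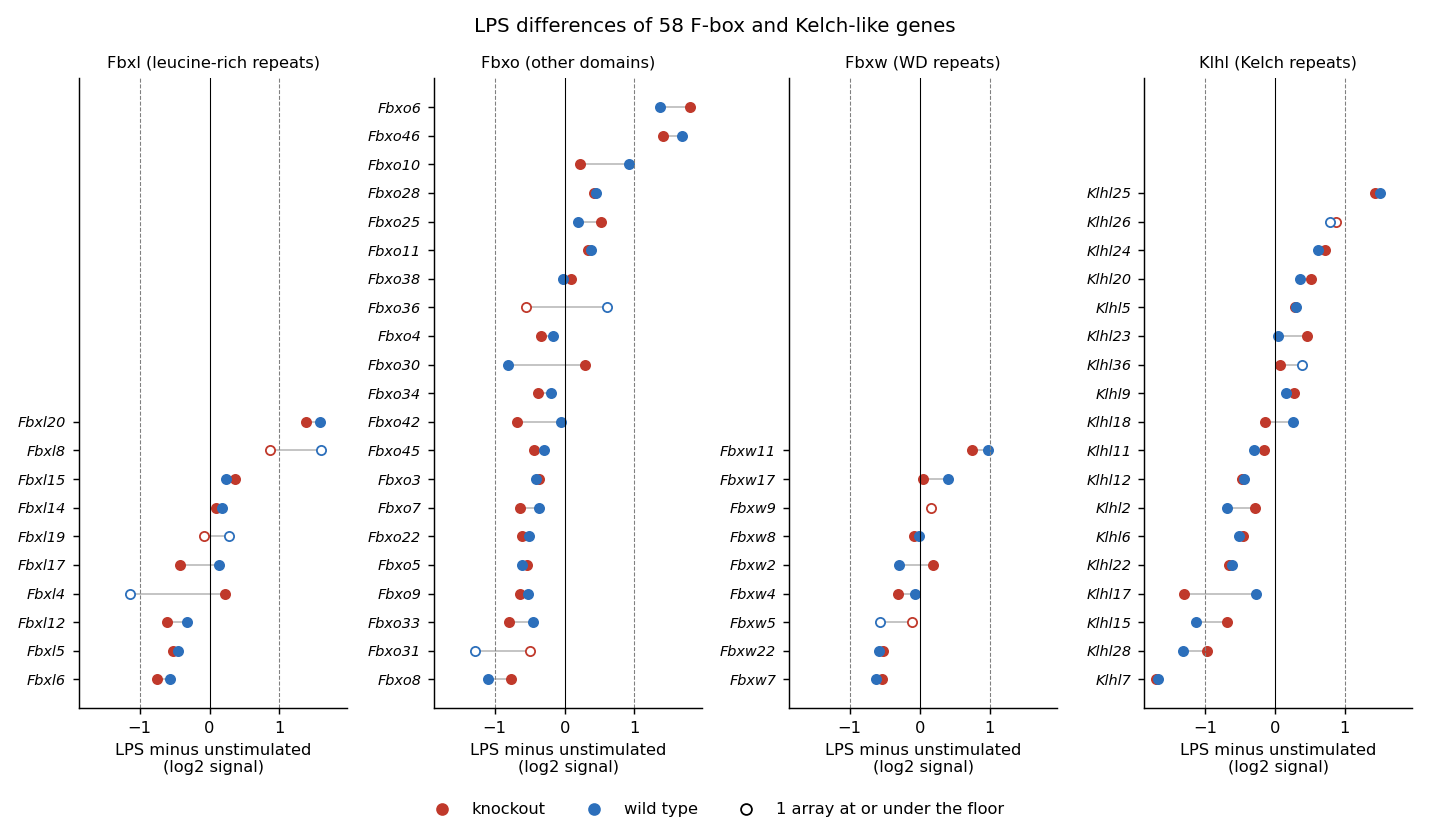
LPS minus unstimulated log2 signal of the 58 members, 1 row a gene and 1 panel a branch of the family, for knockout cells (red) and wild-type cells (blue). Open points have an array at or under the floor, and the dashed lines mark 2-fold. Fbxo6, Fbxo46, Fbxl20 and Klhl25 lie right of the upper line in both genotypes and Klhl7 lies left of the lower one in both.

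Signs and calls were also counted by branch. In the Fbxo branch 13 of 21 members were below 0 after LPS in knockout cells (median -0.37) and 14 of 21 in wild-type cells (median -0.19). In the Fbxl branch 5 of 10 were below 0 in knockout cells (median 0.01) and 4 of 10 in wild-type cells (median 0.16). No Fbxw gene was called in either genotype, among 9 measured in knockout and 8 in wild-type cells. The Klhl branch had 1 gene higher and 2 lower of 18 in knockout cells, and 1 higher and 3 lower of 18 in wild-type cells. With 14.6% of all genes called in knockout and 17.0% in wild-type cells, nothing about a branch is read from these counts. The LPS differences in knockout and wild-type cells share no array. Of the 49 members above the floor throughout, 44 had the same sign in both, 17 above and 27 below 0, and the Pearson correlation over these members was 0.881 (Spearman 0.814). Over all 8156 genes above the floor on all arrays it was 0.894 (Spearman 0.836), with 82.4% of the same sign against 89.8% of members. The points within a correlation share their arrays, so these are descriptions. Of the 57 members measured in both genotypes, 4 (7.02%) were higher in each and 1 (1.75%) was lower in each, against 5.57% and 5.89% of 9220 genes. No call in any comparison was made for 44 of 58 members (75.9%), against 78.8% of all measured genes.

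Fbxo6 had the largest difference of any member in knockout cells. Its product binds the high-mannose sugars of misfolded glycoproteins and takes part in their removal from the endoplasmic reticulum. Fbxo6 stood at a log2 signal of 9.86 in LPS-treated knockout cells, against 8.07 in unstimulated knockout cells. In wild-type cells it stood at 9.82 after LPS, against 8.46 unstimulated. Both LPS arrays were therefore above both unstimulated ones, and the difference was 3.47-fold in knockout and 2.56-fold in wild-type cells. A second probe set of Fbxo6 stayed under the floor on all arrays. Averaging both put the unstimulated values under the floor in each genotype. It left a log2 difference of at least 0.22 in knockout cells, a bound short of 2-fold, and of at least 1.48 in wild-type cells. Scaling on the poly-A controls, which lowered the median of all genes, left 0.79 in wild-type cells, short of 2-fold.

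Fbxo46, an F-box gene whose substrates are not described here, was higher after LPS in both genotypes too. Its log2 signals were 8.72 in LPS-treated and 7.31 in unstimulated knockout cells, a 2.66-fold difference. They were 9.20 in LPS-treated and 7.52 in unstimulated wild-type cells, a 3.2-fold difference. It was measured by 1 probe set, and its unstimulated values were less than 1 log2 unit above the floor. With the floor at the 75th percentile the bounds were at least 0.18 in knockout and 0.65 in wild-type cells. Poly-A scaling left 0.80 in knockout cells.

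Klhl25, which with Cul3 is known in human cells to turn over the translation repressor 4E-BP1, was higher as well. In knockout cells its log2 signal was 8.76 after LPS, against 7.33 unstimulated (2.70-fold). In wild-type cells it was 9.04 after LPS, against 7.53 unstimulated (2.83-fold). Poly-A scaling left log2 differences of 0.82 in knockout and 0.94 in wild-type cells. With the floor at the 75th percentile the bounds were at least 0.22 and 0.49. A second, dimmer probe set had a log2 difference of at least 0.77 in knockout cells, where its unstimulated array was under the floor (1.33 as deposited, that is, with no floor), and of 0.37 in wild-type cells, short of 2-fold.

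Fbxl20, which in mouse neurons controls turnover of a synaptic vesicle-priming protein, completed the set. Its log2 signals were 10.06 after LPS against 8.68 unstimulated in knockout cells (2.61-fold), and 10.33 after LPS against 8.76 unstimulated in wild-type cells (2.98-fold). That probe set is of a kind that can be shared between transcripts (its name ends in _s_at), and so is a second one with 0.83 in knockout and 1.17 in wild-type cells. The remaining probe set above the floor, which is not of that kind, gave 0.43 in knockout and -0.09 in wild-type cells, so the call rests on the probe sets of the shared kind. Poly-A scaling left 0.77 in knockout cells on the probe set that represents the gene.

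Fbxl8, an F-box gene with leucine-rich repeats, was called in wild-type cells, where its fold is a minimum. It stood at 7.66 in LPS-treated knockout cells and at 8.40 in LPS-treated wild-type cells, and was under the floor on both unstimulated arrays (6.49 in knockout, 6.62 in wild-type cells). It was therefore at least 3.03-fold higher after LPS in wild-type cells, and in knockout cells the bound was 0.86 on the log2 scale. With the floor at the 50th percentile of all values the knockout difference was 1.17.

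Klhl7, a Cul3 adaptor mutated in a human retinal degeneration, was the only member lower in both genotypes. Its log2 signal was 7.65 in LPS-treated and 9.35 in unstimulated knockout cells, 3.24-fold lower after LPS. It was 7.31 in LPS-treated and 8.98 in unstimulated wild-type cells, 3.17-fold lower. Both LPS arrays lay below both unstimulated arrays, and its second probe set gave log2 differences of -1.30 in knockout and -1.20 in wild-type cells. With the floor at the 75th percentile the bounds were at most -0.80 in knockout and -0.44 in wild-type cells.

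Promoters are shown for the 5 members called in the same direction in both genotypes. RefSeq's table for GRCm38.p6 gives 250 bases before to 50 after a listed start, each written here 5' to 3' on the gene's strand. Capitals mark matches, on either strand, to any of 7 motifs. The GC box, bound by factors of the Sp family, was searched as GGGCGG. The other promoter element searched was the CCAAT box, by its own letters. The interferon-stimulated response element was searched as GAAANNGAAA, and the GAS element, which STAT factors bind, as TTCNNNGAA. The antioxidant response element, which NRF2 binds, was searched as TGACNNNGC. The E-box of MYC and clock factors was searched as CACGTG, and the NF-kB site by its usual ambiguous consensus. The windows are Fbxo6 at chr4:148152086-148152385 (minus strand, the most upstream of 3 listed starts), Fbxo46 at chr7:19119609-19119908 (plus), Fbxl20 at chr11:98149567-98149866 (minus), Klhl25 at chr7:75848088-75848387 (plus) and Klhl7 at chr5:24100340-24100639 (plus).
Fbxo6: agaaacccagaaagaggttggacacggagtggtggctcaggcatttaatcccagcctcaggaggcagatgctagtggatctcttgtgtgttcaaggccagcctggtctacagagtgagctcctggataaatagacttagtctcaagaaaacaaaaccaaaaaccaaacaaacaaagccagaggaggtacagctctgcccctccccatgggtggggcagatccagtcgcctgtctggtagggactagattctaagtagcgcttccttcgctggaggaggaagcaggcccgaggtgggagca
Fbxo46: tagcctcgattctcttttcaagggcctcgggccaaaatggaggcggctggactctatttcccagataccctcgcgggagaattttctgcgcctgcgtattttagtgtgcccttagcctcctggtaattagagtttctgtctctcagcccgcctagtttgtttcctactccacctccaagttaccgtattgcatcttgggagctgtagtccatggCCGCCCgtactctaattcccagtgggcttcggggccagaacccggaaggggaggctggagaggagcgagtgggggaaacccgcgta
Fbxl20: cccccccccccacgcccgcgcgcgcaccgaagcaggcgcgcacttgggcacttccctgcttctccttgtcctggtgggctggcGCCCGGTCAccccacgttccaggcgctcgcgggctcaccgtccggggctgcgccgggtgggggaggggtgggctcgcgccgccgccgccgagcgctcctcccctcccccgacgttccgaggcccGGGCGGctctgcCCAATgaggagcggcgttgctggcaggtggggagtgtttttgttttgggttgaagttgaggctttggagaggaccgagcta
Klhl25: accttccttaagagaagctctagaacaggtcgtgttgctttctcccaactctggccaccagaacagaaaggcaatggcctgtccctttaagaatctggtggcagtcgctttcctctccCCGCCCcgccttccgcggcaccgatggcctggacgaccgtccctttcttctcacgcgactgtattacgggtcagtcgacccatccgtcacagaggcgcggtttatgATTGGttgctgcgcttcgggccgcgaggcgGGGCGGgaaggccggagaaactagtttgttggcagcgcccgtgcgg
Klhl7: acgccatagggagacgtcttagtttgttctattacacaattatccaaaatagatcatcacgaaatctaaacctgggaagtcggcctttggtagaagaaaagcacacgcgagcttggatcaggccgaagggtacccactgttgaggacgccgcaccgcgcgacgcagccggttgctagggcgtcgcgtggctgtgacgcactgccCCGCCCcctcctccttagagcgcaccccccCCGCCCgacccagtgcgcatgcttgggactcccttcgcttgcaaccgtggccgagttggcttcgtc
No base of these windows lies in more than 1 match. GC boxes numbered 1 in Fbxo46, 1 in Fbxl20, 2 in Klhl25 and 2 in Klhl7, CCAAT boxes 1 each in Fbxl20 and Klhl25, and Fbxl20 held 1 antioxidant response element. The window of Fbxo6 held none of the 7 motifs.

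Across the family, 47 of 58 members had a promoter in the table. For each of these members the most upstream listed start was used. The values over all promoters take every listed start of every gene, whatever its signal on the arrays. The sets are therefore built differently, and no trait of the family is read from the values below. A GC box was present in 36 of these 47 (76.6%), against 35.7% of all 32851 promoters of the same length, and a CCAAT box in 12 (25.5%), against 37.4%. The antioxidant response element was present in 8 (17.0%), against 12.4% of all promoters, the interferon-stimulated response element in 3 (6.38%) against 3.44%, the E-box in 4 (8.51%) against 7.15%, and the GAS element in 1 (2.13%) against 8.30%. NF-kB letters were found in 0 of 47, against 4.51% of all promoters, which says only that they are not in these windows. Member promoters had a median of 60.7% G and C and 22 CpG pairs, against 52.7% and 7 over all promoters. These are descriptions of the letters, and a match is not evidence of binding.

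Other members were lower in a single genotype. Klhl28, a Kelch-like gene, had log2 signals of 9.42 in LPS-treated and 10.73 in unstimulated wild-type cells (2.49-fold lower). In knockout cells it had 9.93 after LPS and 10.89 unstimulated, a log2 difference of -0.97, just short of the call. Its next brightest probe set gave -0.53 in knockout and -1.31 in wild-type cells.

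Klhl15, a Cul3 adaptor known to direct turnover of a regulatory subunit of the phosphatase PP2A, stood at 7.18 in LPS-treated and 8.30 in unstimulated wild-type cells (2.17-fold lower). In knockout cells it stood at 7.70 after LPS and 8.38 unstimulated, a log2 difference of -0.68. A second probe set gave -0.20 in knockout and -0.14 in wild-type cells. Fbxo8, which carries a Sec7 domain, had 7.80 in LPS-treated and 8.90 in unstimulated wild-type cells (2.14-fold lower). Its log2 signals in knockout cells were 8.06 after LPS and 8.83 unstimulated, a difference of -0.77. The only probe set of Fbxo8 is of the kind (_s_at) that can be shared between transcripts. Under quantile normalization and median scaling neither Klhl15 nor Fbxo8 reached 2-fold in wild-type cells (-0.77 and -0.87 for Klhl15, -0.82 and -0.85 for Fbxo8).

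Fbxo31, an adaptor that targets cyclin D1 after DNA damage, was under the floor on both LPS arrays (5.64 in knockout, 6.30 in wild-type cells). Its unstimulated log2 signals were 7.29 in knockout and 8.08 in wild-type cells, so it was at least 2.43-fold lower after LPS in wild-type cells. In knockout cells the bound was -0.50, and with no floor that difference was -1.65. The low LPS signals were thus common to both genotypes, and the call in 1 of them turns on how far the unstimulated array stood above the floor.

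Klhl17, known in neurons as an actin-binding adaptor, was lower in knockout cells only. Its log2 signal was 7.59 in LPS-treated and 8.89 in unstimulated knockout cells (2.46-fold lower), against 8.08 and 8.35 in LPS-treated and unstimulated wild-type cells (-0.27). Its second probe set gave -0.64 in knockout and -0.77 in wild-type cells and so did not show that contrast.

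**Figure D2:**
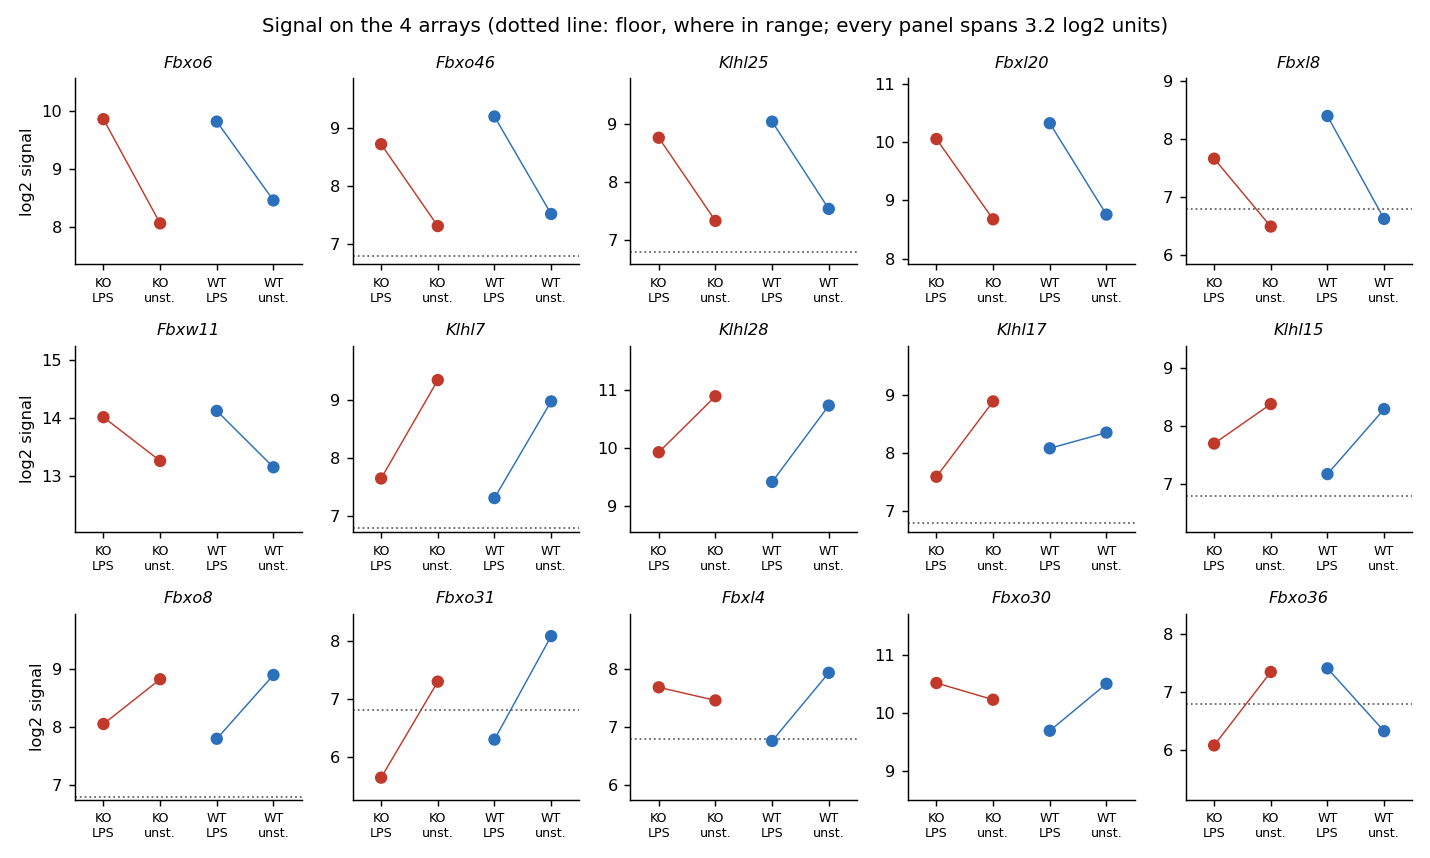
Log2 signal on each of the 4 arrays for the 14 members called in an LPS comparison or in the difference between the LPS responses, and for Fbxw11, with knockout in red and wild type in blue. Lines join the LPS and unstimulated arrays of a genotype, each panel has its own axis of equal span, and the dotted line is the floor at 6.80. Fbxo6, Fbxo46, Klhl25 and Fbxl20 slope down from LPS to unstimulated cells in both genotypes and Klhl7 slopes up.

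Adaptors with a known place in inflammation, iron handling, growth control or the cell cycle were then read regardless of their calls. Fbxw11, which encodes beta-TrCP2, had log2 signals of 14.01 in LPS-treated and 13.25 in unstimulated knockout cells, and 14.11 in LPS-treated and 13.14 in unstimulated wild-type cells. Its log2 differences of 0.75 and 0.97 were short of 2-fold, on a probe set of the kind (_x_at) that can cross-hybridise. The next brightest, not of that kind, gave 1.05 in knockout and 1.20 in wild-type cells, while the others above the floor on all arrays gave -0.04 and 0.03, and 0.16 and -0.70. Btrc, the gene of the related beta-TrCP1, was under the floor on all arrays.

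Fbxw7, the adaptor of MYC, cyclin E, JUN and MCL1, ran the other way. It stood at 8.18 in LPS-treated and 8.73 in unstimulated knockout cells, and at 8.42 in LPS-treated and 9.05 in unstimulated wild-type cells, log2 differences of -0.54 and -0.62. Its second probe set gave -0.47 and -0.70. Fbxl5, the iron-sensing adaptor of iron regulatory protein 2, had 12.17 in LPS-treated and 12.69 in unstimulated knockout cells, and 12.32 in LPS-treated and 12.77 in unstimulated wild-type cells. Fbxo5, which encodes the cell cycle inhibitor EMI1, had 10.76 in LPS-treated and 11.30 in unstimulated knockout cells, and 10.55 in LPS-treated and 11.15 in unstimulated wild-type cells. None of the 3 reached 2-fold, with both LPS arrays below both unstimulated ones in each. Among 5 matched cycling-cell markers, Mki67 had -0.95 in knockout and -1.15 in wild-type cells, and Plk1 had 0.47 and 0.97.

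Among Kelch-like adaptors, Klhl6, which supports B cell responses in mice, had log2 differences of -0.45 in knockout and -0.52 in wild-type cells. Its chromosome 16 neighbour Klhl24, which regulates keratin in skin, had 0.72 and 0.62. Klhl20, an adaptor of the death-associated kinase DAPK1, had 0.51 and 0.36. Klhl22, a mitotic adaptor of the kinase PLK1, had -0.65 and -0.61. Klhl2, an adaptor of WNK kinases, had -0.28 and -0.68. None of these differences reached 2-fold.

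The remaining members were not called in either genotype, and for those with an array under the floor the difference is only a bound. Fbxl6, Fbxl12, Fbxo9, Fbxo22, Fbxo33 and Fbxw22 lay between -0.79 and -0.32 in both genotypes. Fbxo7, a partner of the Parkinson kinase PINK1 that is also needed for red cell maturation in mice, had -0.64 in knockout and -0.37 in wild-type cells. Fbxo11, the adaptor of BCL6, had 0.33 and 0.37, and Fbxl14, an adaptor of the factor Snail, had 0.09 and 0.18. Fbxo10, an adaptor of BCL2 in human lymphoma, had 0.22 in knockout and 0.92 in wild-type cells. Fbxl17, which checks the pairing of BTB proteins, had -0.42 and 0.13, and Fbxo42, an adaptor of p53, had -0.68 and -0.05. Klhl26, a Kelch-like gene, was under the floor on both unstimulated arrays and at 7.68 in knockout and 7.58 in wild-type cells after LPS, with differences of at least 0.88 and 0.79 (just past 2-fold in both as deposited). Fbxw5 was under the floor on both LPS arrays, with differences of at most -0.11 in knockout and -0.56 in wild-type cells (-0.57 and -1.41 as deposited). Fbxw9 had at least 0.16 in knockout cells (1.06 as deposited). For Fbxw8 and Fbxo38 the differences were within 0.10 of 0 in both genotypes.

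The loss of miR-125a was then examined in cells of the same state. Unstimulated, 0 of 55 members were higher and 0 lower in knockout than in wild-type cells, where 0.351% of all measured genes were higher and 0.660% lower (1.01% called). After LPS, 0 of 56 were higher and 0 lower, where 0.615% of all genes were higher and 0.626% lower (1.24% called). The members' shares are near these backgrounds, and no result about the family is read from them. The median size of a member's genotype difference was 0.16 unstimulated and 0.21 after LPS, against 0.16 and 0.19 for all genes. LPS differences of members had median sizes of 0.48 in knockout and 0.45 in wild-type cells.

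Genotype differences were then ranked, each value below the floor being raised to it. Unstimulated, Fbxo31 was lowest, at 7.29 in knockout and 8.08 in wild-type cells (-0.78), and Fbxo10 was highest, at 8.15 in knockout and 7.59 in wild-type cells (0.56). A second probe set of Fbxo31 gave only a bound of at most -0.17 there, at 6.78 in knockout and 6.97 in wild-type cells. After LPS, Fbxl8 was lowest, at 7.66 in knockout and 8.40 in wild-type cells (-0.74). Fbxl4 was highest after LPS, at 7.68 in knockout cells and under the floor at 6.76 in wild-type cells (at least 0.89). Fbxo36 had only bounds, at least 0.55 unstimulated and at most -0.61 after LPS (1.02 and -1.33 as deposited). The differences of Fbxo10 and Fbxl4 did not recur in the other state, at -0.13 for Fbxo10 and -0.48 for Fbxl4. Whether those of Fbxo31 and Fbxl8 recurred could not be read. Fbxo31 after LPS and Fbxl8 unstimulated were under the floor in both genotypes (-0.66 and -0.13 as deposited). The genotype differences in unstimulated and in LPS-treated cells share no array. Over the 49 members above the floor throughout they had the same sign in 31 (63.3%), and correlated at 0.148 (Pearson) and 0.312 (Spearman). All 8156 such genes had the same sign in 56.9%, and correlated at 0.261 (Pearson) and 0.204 (Spearman). Markers of eosinophils and basophils were lower in knockout cells in both states, as summed above, and their part in the genotype values was not tested.

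**Figure D3:**
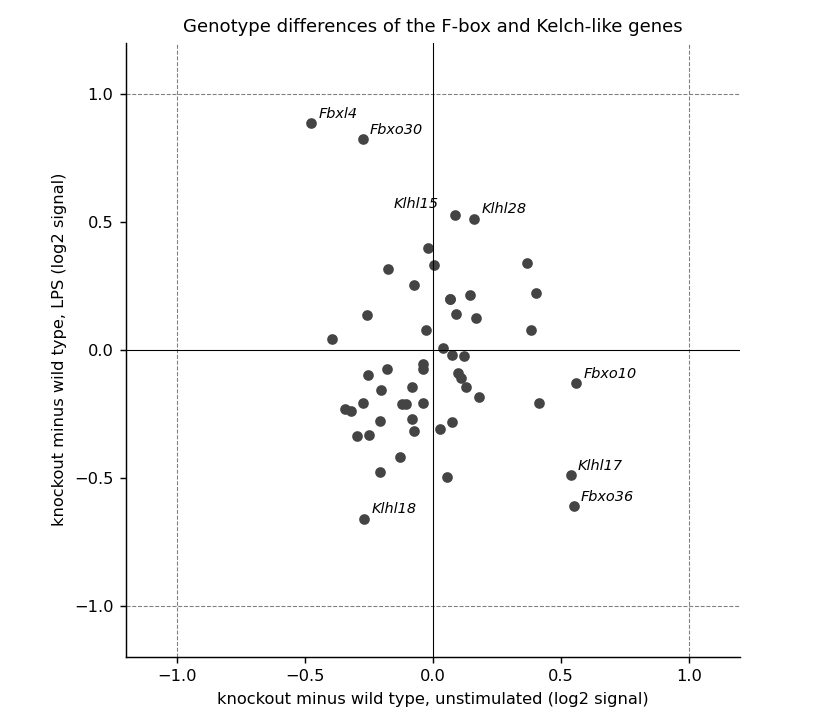
Knockout minus wild-type log2 signal of each member measured in both states, in unstimulated cells on the horizontal axis and in LPS-treated cells on the vertical axis, with dashed lines at 2-fold. All points lie inside the dashed square, and Fbxl4 (-0.48 and 0.89) and Fbxo30 (-0.27 and 0.82) lie farthest toward higher knockout signal after LPS.

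Whether the LPS response depended on genotype was read as the knockout LPS difference minus the wild-type one. Of 57 members 2 were higher by this measure and 2 lower, where 1.27% of all genes were higher and 0.900% lower. Fbxl4, a mitochondrial F-box protein that restrains the removal of mitochondria, had the highest value, at least 1.36. It stood at 7.68 in LPS-treated and 7.46 in unstimulated knockout cells, and at 6.76 in LPS-treated and 7.93 in unstimulated wild-type cells. The wild-type LPS array, just under the floor, therefore stood below the other arrays. The gene was at least 2.20-fold lower after LPS in wild-type cells, and the value between genotypes was 1.40 as deposited. Scaling on the poly-A controls left 0.99, short of the call. Under quantile normalization and median scaling the wild-type difference was -0.80 and -0.93, short of 2-fold.

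Fbxo30, known in mice as an adaptor induced in wasting muscle, had 1.10 by the same measure, which fell short of 2-fold under median scaling (0.96) and with the mean over probe sets (0.74). Its log2 signals were 10.52 in LPS-treated and 10.23 in unstimulated knockout cells, and 9.69 in LPS-treated and 10.50 in unstimulated wild-type cells. The wild-type LPS array was the lowest on this probe set and on another (9.15). It was not on the remaining ones. There it stood at 9.45 against unstimulated 8.28 in knockout and 8.39 in wild-type cells, and at 8.78 against 8.69 and 8.97. That array also had the lowest median signal of the 4, and whether this played a part was not tested. Fbxo36 had the lowest value, at most -1.16, with 6.08 in LPS-treated and 7.35 in unstimulated knockout cells and 7.41 in LPS-treated and 6.33 in unstimulated wild-type cells. The knockout LPS and wild-type unstimulated arrays were under the floor, and the value was -2.35 as deposited. Klhl17 had -1.03, which its second probe set did not share (0.12), and -0.45 with the mean.

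The probe sets of a gene gave a further check. Of the 58 members, 24 had more than 1 probe set above the floor, and in 9 of these (Fbxl20, Fbxo3, Fbxo28, Fbxo30, Fbxo31, Fbxw2, Fbxw11, Klhl24 and Klhl25) the probe sets differed by 2-fold or more in at least 1 of the 4 comparisons. For Fbxo31 this sets bounds against each other (at most -1.28 and at most -0.17 in wild-type cells), as both its probe sets were under the floor after LPS, and as deposited they gave -1.78 and -2.12. Fbxo30 had 4 probe sets, with LPS differences from 0.12 to 1.77 in knockout cells and from -0.81 to 1.06 in wild-type cells. Their order between genotypes was the same in each: the knockout response exceeded the wild-type one by 1.10, 0.72, 0.74 and 0.41. So the sign of the wild-type LPS difference of Fbxo30 depended on the probe set, and the higher value in knockout cells did not. The probe sets were read on the same 4 arrays and are not replicates, and only the gap of 1.10 reached 2-fold.

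Fbxw2, an F-box gene with WD repeats, gave the widest range in knockout cells, from -2.15 to 0.19 over 6 probe sets, and ranged from -1.63 to -0.26 in wild-type cells, where the widest range was that of Fbxw11 (-0.70 to 1.20). Of the Fbxw2 probe sets, 4 were called lower in wild-type cells and 1 in knockout cells, while the brightest, which represents the gene here, gave 0.19 in knockout and -0.30 in wild-type cells. Between genotypes after LPS they ran from -0.46 to at least 1.11, with 1 called, and the brightest gave 0.32. The difference between the LPS responses ran from -0.52 to 1.10, with 2 called (1.10 and at least 1.03), and the brightest gave 0.49. Fbxo3 had 0.43 and 0.22 in knockout cells in its 2 dimmer probe sets but -0.36 in the brightest. Fbxo28 ranged from 0.37 to 0.91 in knockout cells and from -0.83 to 0.55 in wild-type cells. Its difference between the LPS responses ran from -0.03, on the brightest probe set, to 1.20, with 1 called. Klhl24 ranged from -0.26 to 0.82 in knockout and from -0.58 to 0.83 in wild-type cells, 4 of its 5 probe sets being above 0 in each.

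**Figure D4:**
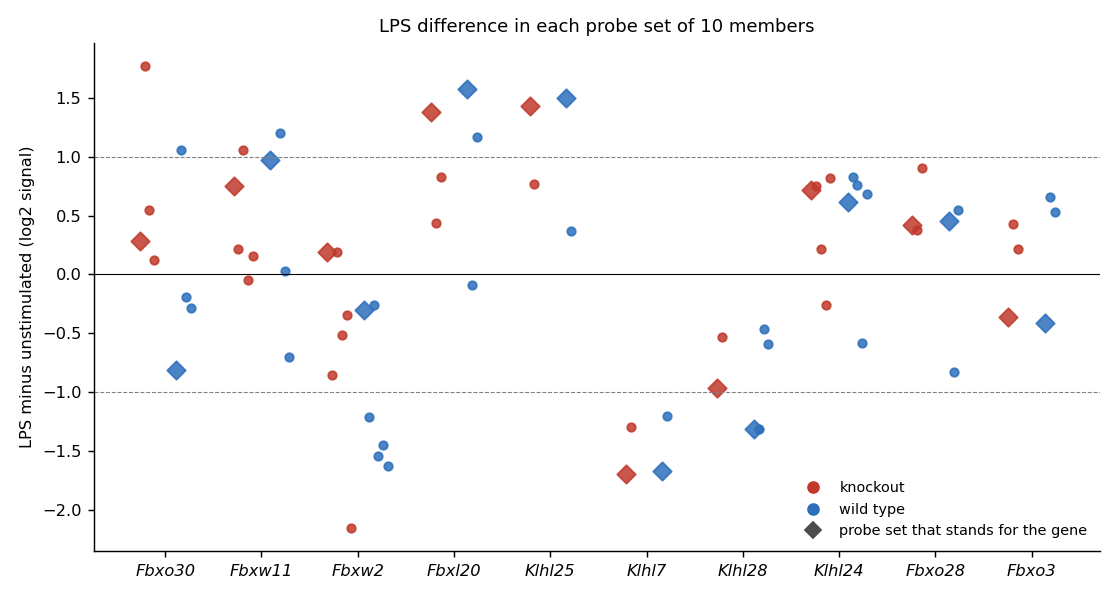
LPS minus unstimulated log2 signal in each probe set above the floor for 10 members, knockout in red left of wild type in blue, with the probe set that represents the gene as a diamond and dashed lines at 2-fold. Both probe sets of Klhl7 lie below the lower line in both genotypes, whereas those of Fbxw2, Fbxo30 and Fbxw11 are spread over both sides of 0 in at least 1 genotype.

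Genes of the shared scaffold were counted from lists of symbols. Of 9 measured cullins, RING subunits and Skp1, 0 were higher and 0 lower after LPS in knockout cells (median log2 difference -0.30), and 0 were higher and 1 lower in wild-type cells (median -0.53). Of all measured genes 14.6% were called in knockout and 17.0% in wild-type cells, and no result about so small a list is read from its counts. Cul3, the scaffold of the Kelch-like adaptors, had -0.47 in knockout and -0.59 in wild-type cells. Cul1, that of the F-box adaptors, had 0.09 and -0.22, and Skp1, their linker, had -0.23 and -0.28. The gene called was Cul5, a scaffold used by other adaptors, at 7.88 in LPS-treated and 8.85 in unstimulated knockout cells, and 7.06 in LPS-treated and 8.22 in unstimulated wild-type cells (2.23-fold lower).

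Cullins are switched on by attachment of the small modifier NEDD8 and reset by its removal. Of 10 measured genes for NEDD8 attachment and cullin exchange, 1 was higher in knockout cells (median 0.08), and 3 were higher and 1 lower in wild-type cells (median 0.09). That is 10% called in knockout and 40% in wild-type cells, against 14.6% and 17.0% of all genes. It rests on 10 genes, and 1 of the wild-type calls is a bound. Dcun1d3, which helps or restrains NEDD8 transfer to cullins, stood at 9.64 in LPS-treated and 7.93 in unstimulated knockout cells (3.27-fold higher). It stood at 10.01 in LPS-treated and 7.83 in unstimulated wild-type cells (4.53-fold higher). Its relative Dcun1d1 had -0.77 in knockout and -1.47 in wild-type cells. Ube2f, the enzyme that carries NEDD8 to Cul5, had 0.90 in knockout and 1.12 in wild-type cells. Senp8, a protease that processes NEDD8, was under the floor unstimulated and had differences of at least 0.74 and 1.12. None of 10 subunits of the COP9 signalosome, which removes NEDD8, was called in either genotype (medians 0.03 in knockout and 0.13 in wild-type cells). The same held for 7 ubiquitin-conjugating partners (medians 0.16 and 0.09).

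Adaptors of the same families that carry other names were listed too. Of 4 measured F-box genes, 0 were called in knockout cells (median 0.63), and 2 were higher in wild-type cells (median 0.89). Both act in the cell cycle. Skp2, which marks the inhibitor p27 for destruction, stood at 10.10 in LPS-treated and 9.10 in unstimulated wild-type cells, just past 2-fold, with a difference of 0.79 in knockout cells. Ccnf, cyclin F, had 0.54 in knockout and 1.37 in wild-type cells. Of 16 BTB adaptor genes, 1 was higher and 1 lower in knockout cells (median -0.01), and 0 were higher and 3 lower in wild-type cells (median -0.02). With 14.6% of all genes called in knockout and 17.0% in wild-type cells, no result about either list is read from these counts. The F-box share of 50% in wild-type cells rests on 4 genes. Keap1, the sensor that holds the antioxidant factor NRF2 in check, had 0.42 and 0.61. Rhobtb2 was lower in both, with -1.20 in knockout and -1.42 in wild-type cells. Spopl, a relative of the adaptor SPOP, had -0.43 in knockout and -1.91 in wild-type cells. Kctd13, a Cul3 adaptor of the small GTPase RhoA, had 1.60 and 0.45, and Ivns1abp had -0.68 and -1.19.

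**Figure D5:**
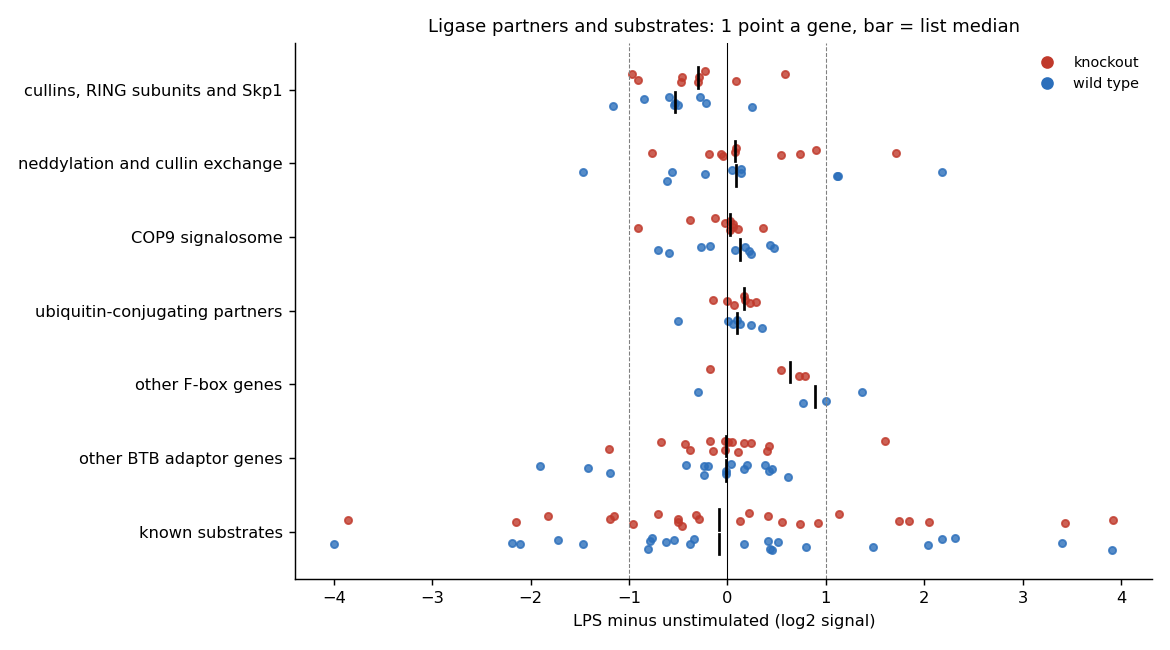
LPS minus unstimulated log2 signal of the genes in 7 lists of ligase partners, related adaptors and substrates, 1 point a gene, knockout in red above wild type in blue, with the list median as a black bar and dashed lines at 2-fold. Points of the COP9 signalosome and of the ubiquitin-conjugating partners stay inside the dashed lines, and those of known substrates reach from -4.00 to 3.92.

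Transcripts of proteins known as substrates of these ligases were listed last. Of 24 measured, 6 were higher and 5 lower after LPS in knockout cells (median -0.08), and the counts were again 6 and 5 in wild-type cells (median -0.09). That is 45.8% called in each, against 14.6% of all genes in knockout and 17.0% in wild-type cells, for a list chosen with earlier results known. Substrates of beta-TrCP in the NF-kB pathway were among the higher ones: Nfkb2 had 3.92 in knockout and 3.90 in wild-type cells, Nfkbie had 3.43 and 3.40, and Nfkbib had 1.85 and 2.18. Nfkbia, which encodes IkB-alpha, had 0.74 and 0.51, short of 2-fold. Nfe2l2, which encodes NRF2, had 2.05 in knockout and 2.04 in wild-type cells. Cry1, a repressor of the circadian clock, had 1.75 and 2.32, and Cdkn1a, the cell cycle inhibitor p21, had 1.13 and 1.48. On the low side were Pdcd4, a translation inhibitor that beta-TrCP degrades, with -1.15 and -1.73, and Per1, a clock protein it degrades too, with -2.15 and -2.11. Per2, its relative, had -3.85 in knockout cells and at most -4.00 in wild-type cells, where its LPS array was under the floor. Jun, an Fbxw7 substrate, had -1.83 and -2.19. Bcl6, the substrate of Fbxo11, was called in knockout cells (-1.19 against -0.76 in wild-type cells), and Ccne2, a cyclin E gene, in wild-type cells (-0.96 in knockout and -1.46 in wild-type cells). For the Fbxw7 substrates Mcl1 and Myc the differences were -0.29 and 0.42 in knockout cells and -0.34 and 0.17 in wild-type cells. No gene of the 7 lists was called between knockout and wild type in either state. The difference between the LPS responses was called for 2 of 16 BTB adaptor genes (12.5%, against 2.17% of all genes), Spopl at 1.48 and Kctd13 at 1.16, and for no other list gene. Each had an array just above the floor, Spopl at 6.93 in LPS-treated wild-type cells and Kctd13 at 6.82 in unstimulated knockout cells. With 2 genes, nothing about the list is read from this share.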

How the data were processed

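The authors deposited log2 signals from MAS5, as their processing notes name it; the MAS5 version and target were not stated. Per the series design text, RNA of 3 experiments was pooled for each array. After unlogging, every array's trimmed mean (2% cut from either tail) was 500.003 or 500.004, so arrays were scaled to 1 target, which hides a change that most genes share. MAS5 corrects background array by array, which makes dim values noisy; 298 to 428 values an array were listed at 0.

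Of 45101 probe sets, the platform annotation gave 34945 a single symbol (64 control probe sets left out) and 932 several, and did not list 9211; those with 1 symbol were used. All 100 family symbols were found in the GRCm38.p6 gene table. Values under the floor (log2 6.80, signal 111) were set to it, and a difference between arrays was called from 2-fold (log2 1). With 1 array a group, no p-value or standard deviation was computed. Alternatives were quantile normalization, median scaling, scaling on poly-A spike-in controls, floors at the 50th and 75th percentiles, no floor, the mean over the probe sets of a gene, and leaving out probe sets ending in _s_at or _x_at. The calculation was tested on simulated data.

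Named members were those called in any comparison, largest first, those with a listed role in NF-kB, circadian, iron, MYC or MCL1 or cell-cycle control, those whose probe sets disagreed 2-fold, and those beside the floor. List genes called in any comparison were named too. Other members and uncalled list genes were named after their values were seen. The members and lists were chosen with earlier results of these data known. Python 3.11.15, pandas 2.3.3 and numpy 2.4.6 were used.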

Additional observations from a re-analysis of the deposited data

Results flagged for a closer look

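For 3 members the LPS differences ran in opposite directions in knockout and wild-type cells and lay at least 2-fold apart, against 1.247% of all measured genes (115 of them). With 1 array a group, none of these differences between genotypes was tested. Fbxl4 had a knockout LPS difference of 0.23 and a wild-type one of -1.14, a gap of at least 1.36, with its wild-type LPS array just under the floor. Fbxo30 had 0.29 in knockout and -0.81 in wild-type cells, a gap of 1.10, and its other 3 probe sets had gaps of 0.72, 0.74 and 0.41. Fbxo36 had -0.55 in knockout and 0.61 in wild-type cells, a gap of at most -1.16, with 2 arrays under the floor.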

How the results depend on the processing

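With 1 array a group the calls carry no replicate error, and values under the floor give only bounds. No paired analysis was possible because each group is 1 array. Member counts and medians that moved are given below, knockout LPS against unstimulated first. The list is not complete, and a setting not named may also have moved a value. Members higher numbered 4, and 1 under poly-A scaling, 7 with a lower floor (50th percentile), 2 with a higher one (75th), 7 with none and 2 with the mean over probe sets. Members lower numbered 2, and under the same settings 21, 4, 0, 4 and 1. The median of -0.15 was -0.75 under poly-A scaling, -0.28 with the lower floor, -0.23 with the higher one and -0.29 with none. It was -0.087 under quantile normalization and -0.052 under median scaling. In wild-type cells, members higher numbered 5, and 3 under poly-A scaling, 2 with the higher floor and 3 with the mean. Members lower numbered 6, 3 after quantile normalization, 3 after median scaling, 19 under poly-A scaling and 1 with the higher floor. Set against the shift of all genes, 7 were higher and 7 lower in wild-type cells with the lower floor and with no floor. The wild-type median of -0.17 turned to 0.045 on quantile normalization, turned to 0.064 on median scaling, and was -0.68 under poly-A scaling and -0.053 with the lower floor. Median scaling moved the median of all genes by 0.23 there, and poly-A scaling moved it by -0.51 (-0.56 in knockout cells).

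Between genotypes, 0 members were called, but Fbxo36 was 1 member higher in unstimulated knockout cells (1.02) and 1 lower after LPS (-1.33) with the lower floor and with no floor. Fbxo6 was 1 member lower after LPS (-1.26) with the mean. The genotype median after LPS, -0.09, was -0.24 under median scaling and 0.020 with the mean. For the difference between LPS responses, members higher numbered 2, and 1 each under median scaling, poly-A scaling and the higher floor. Members lower numbered 2, and 0 with the higher floor and 1 with the mean. Its median of -0.04 was -0.18 under median scaling and 0.072 with the mean. Fbxl20 in wild-type cells turned to -0.091 without probe sets ending in _s_at or _x_at. No other of the 21 member calls turned in sign. Kept calls numbered 18 under quantile normalization, 17 under median scaling and 15 under poly-A scaling. They numbered 11 of 20 with the mean over probe sets and 6 of 14 with the higher floor. All 21 were kept with the lower floor and with no floor. That was fixed in advance, since these settings could only keep or enlarge the called differences. The call of Klhl28 in wild-type cells held under all 8 alternatives, the weakest value being -1.07. Most of these could not have ended it. All its arrays lay above every floor used, and its probe set does not end in _s_at or _x_at. The floor settings and that exclusion therefore left it unchanged, and poly-A scaling lowered LPS differences. Beyond the settings' own construction, the cause of these changes was not tested.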
